A study of Mus musculus with 7 samples.

Results

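Transcripts of 10 NF-kappaB pathway genes were followed in ovulated mouse oocytes that lacked the maternal effect gene Nlrp2 and in wild-type (WT) oocytes. The members were chosen by name because NLRP2 is a reported regulator of this pathway: Nfkb1, Nfkb2, Rela, Relb, Rel, Nfkbia, Ikbkb, Chuk, Ikbkg and Tnfaip3. All 10 were among the 18951 gene symbols of the deposited table. Both groups were C57BL/6 females of 4 weeks, and each pool held about 150 oocytes of 3 to 4 mice of the same genotype, freed of cumulus cells with hyaluronidase. There were 3 WT and 4 Nlrp2-null pools, sequenced to between 71073973 and 96330083 reads counted in genes per pool. The labels do not say how the null allele was made or whether the females were hormone-treated.

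NF-kappaB is a family of dimeric transcription factors that are held in the cytoplasm by inhibitor proteins. In the canonical route, ligands of the tumour necrosis factor, interleukin-1 and Toll-like receptor systems activate a kinase complex made of IKKalpha, IKKbeta and the scaffold NEMO. This complex marks the inhibitor IkappaBalpha for destruction, and RELA or REL dimers enter the nucleus. Among the genes that they then switch on are Nfkbia and Tnfaip3, which close negative feedback loops. In cultured cells NLRP2 has been reported to restrain this route. A fully grown ovulated oocyte is transcriptionally silent, so its RNA is a store laid down during growth, and RNA levels say nothing of whether the proteins are active.

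Nlrp2 checked the labels. It stood at a mean of 17483 normalized counts in WT pools and 45.3 in null pools (log2 fold change -9.70, limma adjusted p = 6.98e-05), and all 4 null pools lay below all WT pools. A normalized count is the read count divided by a size factor per pool. All 14 oocyte markers were above 0 in every pool, and their sum ran from 730942 to 887234. Of 25 cumulus and granulosa markers 24 were in the table. Averaged as log2 values they came to 8.82, 7.64 and 7.71 for WT 1 to WT 3. For null 1 to null 4 they came to 8.09, 8.35, 8.94 and 9.63, which puts null 4 and null 3 first and WT 1 next. Of the 24 markers 23 had a higher mean in null than in WT pools. On the log2 scale of the limma test, 19 of the 23 tested were positive and 4 negative. None had an adjusted p under 0.05, against 0.0664% of all tested genes. The summed normalized counts of the 24 markers were 43176 to 66003 in WT and 52509 to 76195 in null pools. The 10 oviduct epithelium markers in the table summed to 403 to 575 in WT pools, and null 1 to null 4 had 648, 893, 798 and 2812. Krt19 and Cldn3 were at 0 in all WT pools and Foxj1 at 0 in all null pools. Of the 8 oviduct markers tested, 7 were positive and 1 negative (median log2 fold change 1.57), and limma called 0. At an unadjusted limma p under 0.05, 3 were higher in null pools and 0 lower, against 5.28% and 4.93% of all tested genes. In 2 the null pools lay wholly above WT pools, against 4.74% of all tested genes. Of 15 leukocyte markers, Cd14 and Tyrobp were at 0 in all WT pools and Cd79a and Coro1a in all null pools. The leukocyte sum was 7695 to 8698 in WT and 6649 to 8954 in null pools, most of it from Ms4a1 (6545 to 6792 in WT, 4723 to 5586 in null pools), while the pan-leukocyte gene Ptprc was at most 25.1.

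None of the 10 members passed the test between genotypes. Over all 15071 genes tested, 0.0664% were called at an adjusted p under 0.05 (limma, Benjamini-Hochberg), 0.0531% higher and 0.0133% lower in null pools. The transcripts of Rel and Rela were lower in all 4 null pools than in all 3 WT pools. They stood at 0.830 and 0.812 times the WT level, but their limma adjusted p values were 0.447 and 0.464. Across all tested genes 5.16% had null pools that lay wholly below WT pools, against these 2 of 10 members, and no member lay wholly above, against 4.74% of all genes (9.91% in either direction). At an unadjusted p under 0.05 the same 2 members were lower, against 4.93% of all genes, and none was higher, against 5.28% (10.2% in either direction). The median log2 fold change of the members was -0.023, beside 0.0056 for all tested genes, with 5 members positive and 5 negative. edgeR and DESeq2, run on the recovered reads, also called 0 members. Over all genes edgeR called 0.0464% of those tested, and DESeq2 1.54% of those to which it gave an adjusted p. At an unadjusted p under 0.05 each of these tools also had only Rel and Rela.

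NF-kappaB dimers bind short kappaB sites, and such sites near its own inhibitor genes are the textbook basis of the feedback loops. RefSeq promoter windows (GRCm38.p6, 250 bases before to 50 after the start) were held for 7 of the 10 genes and were missing for Nfkb1, Relb and Ikbkb. They were searched on both strands for the kappaB decamer consensus, with overlapping matches allowed. Of the 7 genes, Rel, Nfkb2, Nfkbia and Tnfaip3 held a match, and Rela, Chuk and Ikbkg did not. Among all 27025 genes with a window 9.55% held a match, as did 8.46% of single windows of 300 bases. Of 28 textbook NF-kappaB target genes 19 had a window, and 11 of these held a match. The printed sequences show the kappaB matches, in capitals, for Rel and for both feedback inhibitors. Rela, the other gene whose pools did not overlap, is shown beside them and has no match in its stretch. Each is written 5′ to 3′ along the gene, with positions counted from the transcript start, and bases inside annotated exons of the gene were left out except for 30 bases around the Tnfaip3 matches. The stretches are chr11:23770971-23771219 (minus strand, positions -250 to -2) for Rel, chr19:5637291-5637482 (plus strand, -250 to -59) for Rela and chr12:55492648-55492897 (minus strand, -250 to -1) for Nfkbia. The Tnfaip3 sites are chr10:19015516-19015545 (minus strand, -135 to -106) and chr10:19015403-19015432 (minus strand, -22 to 8).
Rel promoter: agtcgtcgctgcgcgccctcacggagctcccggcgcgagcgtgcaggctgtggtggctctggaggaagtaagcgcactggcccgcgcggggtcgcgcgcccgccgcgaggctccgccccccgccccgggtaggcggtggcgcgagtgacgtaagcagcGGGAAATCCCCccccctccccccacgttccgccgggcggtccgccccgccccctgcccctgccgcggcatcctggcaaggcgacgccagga
Rela promoter: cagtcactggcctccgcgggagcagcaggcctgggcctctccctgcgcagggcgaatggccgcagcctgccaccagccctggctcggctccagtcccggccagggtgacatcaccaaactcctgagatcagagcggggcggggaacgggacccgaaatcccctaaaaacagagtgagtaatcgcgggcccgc
Nfkbia promoter: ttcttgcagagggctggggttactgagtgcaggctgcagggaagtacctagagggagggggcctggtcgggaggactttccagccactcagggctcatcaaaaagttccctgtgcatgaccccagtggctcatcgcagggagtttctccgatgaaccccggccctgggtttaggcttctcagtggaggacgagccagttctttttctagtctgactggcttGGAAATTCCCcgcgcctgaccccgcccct
Tnfaip3 distal match: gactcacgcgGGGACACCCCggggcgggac
Tnfaip3 proximal match: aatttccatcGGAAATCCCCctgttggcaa
The match of Rel spans positions -92 to -82, that of Nfkbia -29 to -20, and those of Tnfaip3 -125 to -116 and -12 to -3. Of the 2 genes with pools apart, neither of which was called, Rel holds a match and Rela does not. Nfkb2 and both feedback genes, with matches, and Chuk and Ikbkg, without, had overlapping pools. Whether a match bears on the pool differences was not tested. A match describes letters only, since no binding was measured here.

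Per length, the RNA of this family in the pools was mostly Rela and Rel, and its cells of origin were not told apart. Compared per kilobase of annotated exon, Rela had a mean of 961 normalized counts over the 7 pools (range 747 to 1147) and Rel 467 (417 to 550). Among the 14534 tested genes with an exon length these levels stood at percentiles 79.9 and 68.7. Rela came to 2.06 times Rel, and Rel to 2.58 times the next gene, and neither gap was bridged by any pool. The order of Rela and Rel rests on their lengths, however. Before division by length Rel (mean of 3485 normalized counts over the 7 pools) stood above Rela (2951). Rel has 7466 bases under both lengths used here, against 3072 in union for Rela. Chuk (181) and Nfkbia (172) followed at percentiles 53.5 and 52.8, and their pools overlapped. Nfkb1 (71.9), Ikbkb (54.8) and Nfkb2 (51.2) came next, at percentiles 39.3, 35.5 and 34.5, and each overlapped its neighbour. Ikbkg (14.99), Relb (14.7) and Tnfaip3 (5.73) were lowest, at percentiles 17.2, 17.01 and 6.36, and also overlapped in a chain. The middle of the order also changed with the length used. The annotated exons of Ikbkb (19078 bases in union) and Nfkb1 (12061 bases) far exceed the longest transcript of each gene (4845 and 4149 bases). With the longest single transcript as length, Chuk (263), Ikbkb (216), Nfkb1 (209) and Nfkbia (176) formed 1 overlapping group. Rela (1086), Rel (467) and the lowest 4 genes kept their places, except that Relb (17.5) and Ikbkg (17.4) traded theirs.

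**Figure D1:**
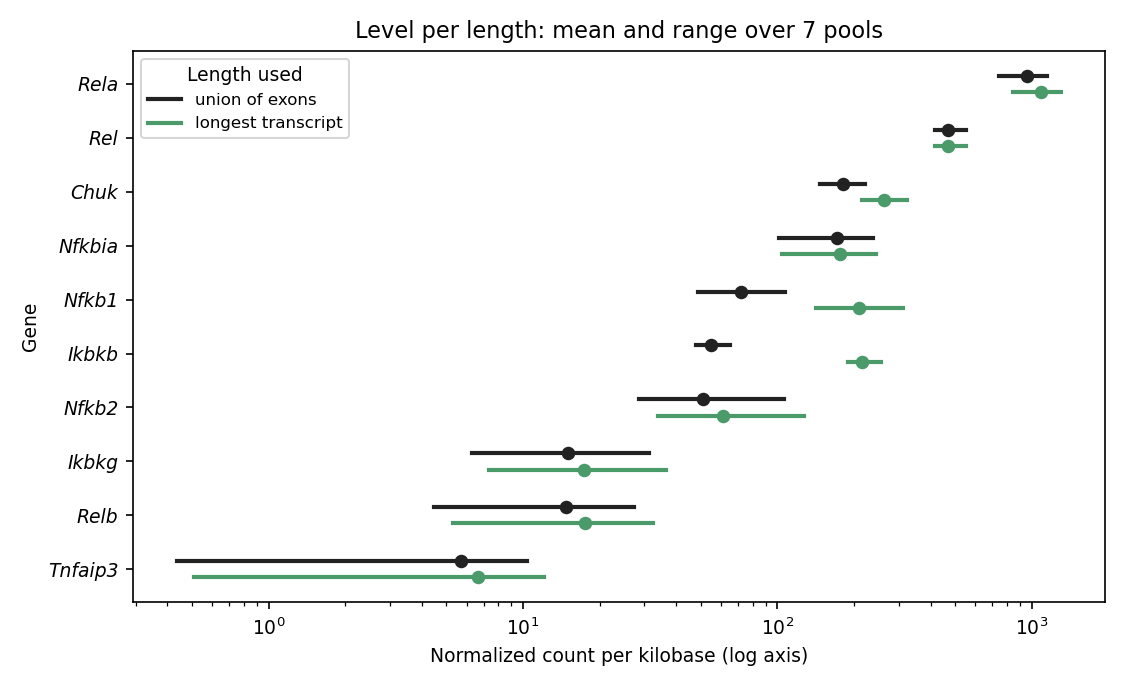
Normalized count per kilobase (log axis) of the 10 genes, as the mean (point) and the range over 7 pools (line), with the union of exons (black) or the longest transcript (green) as length. Rela and Rel stand above the other 8 genes with either length, and Tnfaip3 is lowest.

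Rel, which encodes the c-Rel subunit, was the most evenly expressed member among null pools. The gene lies on chromosome 11 (23736847 to 23770970, minus strand, GRCm38) and no other annotated gene shares its exons. Its normalized counts were 3640, 4110 and 3835 for WT 1 to WT 3 and 3271, 3244, 3184 and 3113 for null 1 to null 4. The null pools lay within 2.19% (coefficient of variation) of each other, and the lowest WT pool stood above the highest null pool. Means were 3861 ± 236 (SD, n = 3) and 3203 ± 70.1 (SD, n = 4), with a log2 fold change of -0.27 (SE 0.115, 95% interval of the fold 0.701 to 0.984). The limma p was 0.0338 unadjusted and 0.447 adjusted, which ranks Rel 1141st of all tested genes. Over 21 alternative fits the log2 fold change ran from -0.33 to -0.22 and the adjusted p from 0.262 to 0.850. The library numbers in the labels fall in a lower and a higher range, and the log2 difference was -0.25 in the lower range (2 WT and 2 null pools) and -0.28 in the higher (1 WT and 2 null pools). Fitted with the cumulus mean as covariate it was -0.22, and without null 3 and null 4 it was -0.24.

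Rela encodes p65, the subunit that carries the main transactivation domain of canonical NF-kappaB. It lies on chromosome 19 (5637483 to 5648130, plus strand) with no exon shared with another gene. The 3 WT values were 3142, 3525 and 3229 normalized counts, and the 4 null values were 2293, 2725, 2709 and 3032. Null 1 was lowest and null 4 was nearest to WT 1, and the groups did not overlap. Means were 3299 ± 201 (SD, n = 3) and 2690 ± 303 (SD, n = 4), with a log2 fold change of -0.30 (SE 0.133, 95% interval of the fold 0.668 to 0.987). The limma p was 0.0383 unadjusted and 0.464 adjusted. Alternative fits gave -0.40 to -0.23, with adjusted p values of 0.331 to 0.855. The log2 difference was -0.41 in the lower and -0.17 in the higher range of library numbers. Fitted with the cumulus mean as covariate it was -0.37, and without null 3 and null 4 -0.40.

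Relb, the subunit of the alternative pathway that pairs with p52, was scarce. It lies on chromosome 7 (19606217 to 19629438, minus strand). Its normalized counts were 57.9, 106 and 86.4 in WT pools and 17.3, 46.1, 59.8 and 26.2 in null pools, resting on 16 to 112 reads. All null pools but null 3 lay below the lowest WT pool, WT 1. The ratio of the null mean (37.4 ± 19.2, SD, n = 4) to the WT mean (83.6 ± 24.4, SD, n = 3) was 0.447, but the 95% interval of the fitted fold ran from 0.149 to 1.19 (limma estimate -1.25 on the log2 scale, standard error 0.705, adjusted p = 0.583). The difference was negative in all 20 alternative fits that tested it, from -1.52 to -0.94.

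For both precursor genes 1 null pool, null 4, lay far above the other null pools. Nfkb1, which encodes p105 and its product p50, lies on chromosome 3 (135584655 to 135691547, minus strand). It stood at 1188, 834 and 770 normalized counts in WT pools and at 761, 587, 636 and 1298 in null pools. Of the null pools 3 lay below every WT pool and null 4 lay above them all. The log2 fold change was -0.23 (limma standard error 0.27, adjusted p = 0.821). In such pools fewer cells of a type and less RNA per cell cannot be told apart. Both high pools, null 4 and WT 1, were also among the top 3 in cumulus markers (9.63 and 8.82), while null 3, the other of these 3 (8.94), had the second lowest Nfkb1 value. With that mean as a covariate the log2 fold change was -0.60 (limma adjusted p = 0.506). Without null 4 it was -0.47, and without WT 1 it was -0.040. Whether cumulus cells had a part in the Nfkb1 values was not tested.

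Nfkb2, which encodes p100 and its product p52, lies on chromosome 19 (46304320 to 46312385, plus strand). Its WT values were close together at 197, 238 and 197 normalized counts, while null pools held 131, 235, 156 and 489. Null 4 alone carried the null mean of 253 ± 163 (SD, n = 4) above the WT mean of 210.5 ± 23.5 (SD, n = 3). The log2 fold change was 0.07 (limma standard error 0.446, adjusted p = 0.972), and it was -0.31 without null 4 or with the cumulus mean as covariate. Null 4 also had the highest sum of oviduct epithelium markers (2812, against at most 893 elsewhere), and the part of these cells in the Nfkb2 value was not tested. Exons of Nfkb2 overlap, on the opposite strand, those of AC114539.1, a noncoding RNA gene not analysed here, and of Psd. Psd had 6.32 to 14.8 normalized counts in WT and 41.2 to 122 in null pools, without overlap (limma adjusted p = 0.351), and without strand the reads of such a pair cannot be told apart.

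**Figure D2:**
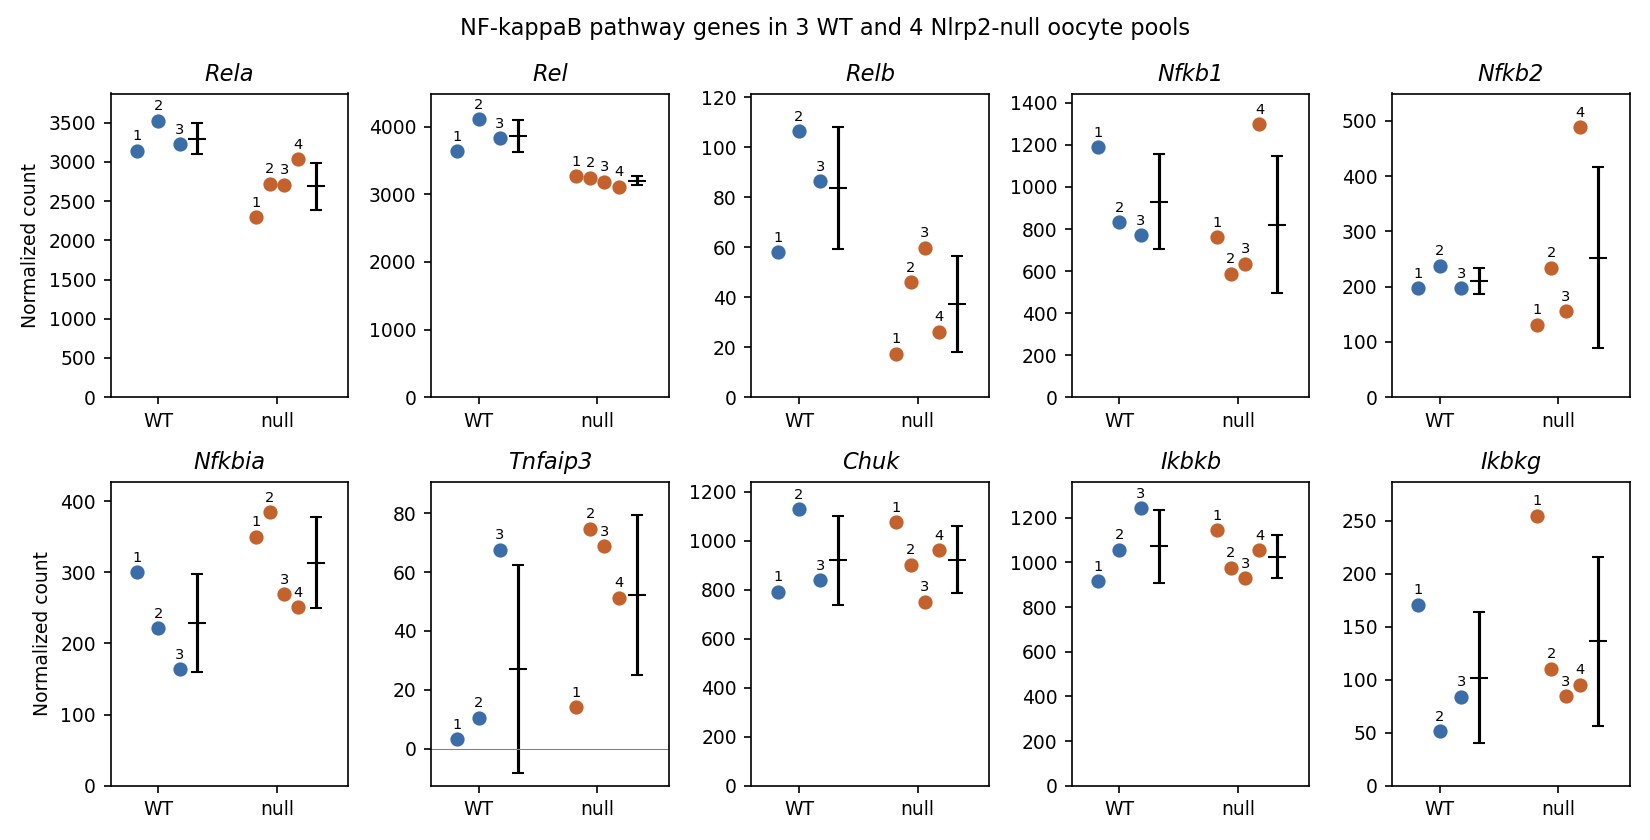
Normalized counts of the 10 genes (vertical axes from 0 except for the error bar of Tnfaip3, each gene on its own scale) in WT (blue) and Nlrp2-null pools (orange), with pool numbers, group means and SD (black). The groups are apart for Rela and Rel only, and null 4 is the highest pool for Nfkb1 and Nfkb2.

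Both feedback inhibitors had higher means in null pools and overlapped. Nfkbia encodes IkappaBalpha, the inhibitor that traps dimers in the cytoplasm, and lies on chromosome 12 (55489410 to 55492647, minus strand). Its normalized counts were 300, 221 and 164 in WT pools and 350, 384, 269 and 251 in null pools. Null 1 and null 2 lay above all WT pools, and WT 1 lay above null 3 and null 4. The means of 228.5 ± 68.5 (SD, n = 3) and 313.5 ± 63.8 (SD, n = 4) gave a log2 fold change of 0.48 (SE 0.349, 95% interval of the fold 0.833 to 2.32, limma adjusted p = 0.681). It was 0.51 and 0.66 within the lower and the higher range of library numbers, and positive in all 21 alternative fits.

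Tnfaip3 encodes A20, a ubiquitin-editing enzyme that shuts off signalling upstream of the kinase complex. It lies on chromosome 10 (19000910 to 19015657, minus strand) and was the least abundant member. Normalized counts were 3.16, 10.5 and 67.5 for WT and 14.1, 74.8, 68.7 and 51.3 for null pools. Behind them stood 3, 11 and 82 reads in WT and 13, 73, 70 and 49 in null pools. The exact 95% Poisson interval for 3 reads is 0.619 to 8.77 and that for 82 reads is 65.2 to 102, for counting error only, so WT pools differed among themselves by far more than counting error. The fitted log2 fold change was 1.61 (limma standard error 1.04, adjusted p = 0.64), with a 95% interval of the fold from 0.657 to 14.1. It was 2.71 without WT 3 and 0.69 without WT 1, and edgeR gave 0.95. Among pools with lower library numbers the difference was 2.29, and within the higher range it was -0.18, where WT 3 is the only WT pool.

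The catalytic kinase genes had nearly equal means in both groups. Chuk, which encodes IKKalpha, lies on chromosome 19 (44073335 to 44107480, minus strand). It had 792, 1128 and 839 normalized counts in WT and 1076, 902, 750 and 962 in null pools. The groups overlapped throughout, with means of 920 ± 182 (SD, n = 3) and 923 ± 136 (SD, n = 4). The log2 fold change was 0.01 (SE 0.209, 95% interval of the fold 0.741 to 1.37, limma adjusted p = 0.991).

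Ikbkb, which encodes IKKbeta, the kinase that phosphorylates IkappaBalpha, lies on chromosome 8 (22659212 to 22706589, minus strand). Its values were 915, 1057 and 1242 normalized counts in WT and 1144, 977, 928 and 1055 in null pools, all 4 of which fell inside the WT range. The log2 fold change was -0.06 (SE 0.187, 95% interval of the fold 0.730 to 1.27, limma adjusted p = 0.944). For both kinase genes the sign of the difference depended on single pools: without WT 3 that of Ikbkb was 0.056, and without WT 1 that of Chuk was -0.089. Any fold inside these intervals is compatible with the values of these pools, so equal levels were not shown.

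Ikbkg encodes NEMO, the scaffold without which the canonical kinases cannot be activated, and it lies on chromosome X (74393290 to 74453854, plus strand). It stood at 171, 51.3 and 84.0 normalized counts in WT pools and at 255, 111, 84.4 and 95.2 in null pools. Null 1 stood far above the other null pools, and WT 1 far above the other WT pools. The log2 fold change was 0.44 (limma standard error 0.575, adjusted p = 0.842), and it was 0.088 without null 1 and 0.035 without WT 2. Its exons overlap those of G6pdx on the opposite strand. G6pdx, the glucose-6-phosphate dehydrogenase gene, had 73094 to 89973 normalized counts, and without strand the reads of the pair cannot be told apart, so the level of Ikbkg is uncertain. The highest pool was WT 2 for G6pdx and null 1 for Ikbkg, and the part of shared reads in the Ikbkg value was not tested.

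**Figure D3:**
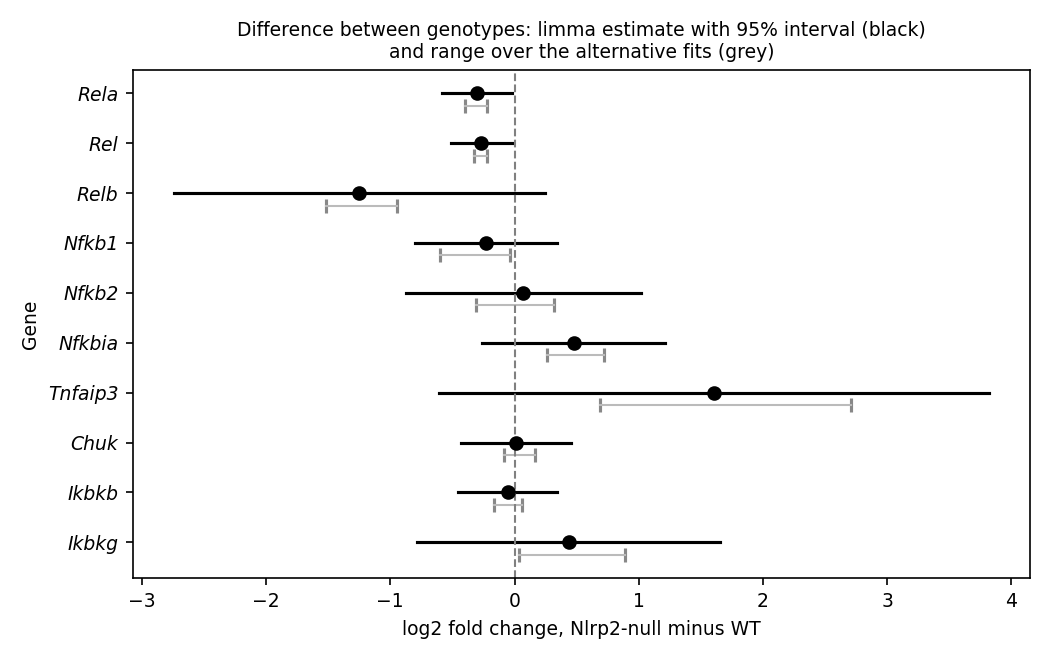
log2 fold change of the 10 genes, Nlrp2-null minus WT, from limma with its 95% interval (black) and the lowest and highest value over the alternative fits (grey). The intervals of Rela and Rel lie just below 0, the other 8 span 0, and those of Relb and Tnfaip3 are the widest.

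The rest of the pathway was read from 6 lists of 117 genes by role, of which 110 were in the table and 97 were tested. None passed the limma test, against 0.0664% of all genes. 2 of the 97 were higher and 2 were lower at an unadjusted p under 0.05, against 5.28% and 4.93% of all genes. DESeq2 called 1 of them, Btrc, against 1.54% of all genes to which it gave an adjusted p. The lists had median log2 fold changes of -0.15 (6 ligands), 0.28 (13 receptors), 0.13 (26 adaptors and upstream kinases), 0.07 (20 ubiquitin regulators), 0.02 (12 other inhibitors and cofactors) and 0.11 (20 textbook targets), beside 0.0056 for all tested genes. Large fitted folds were mostly those of scarce transcripts. Of the 35 members and list genes with a mean under 100 normalized counts, 16 had an absolute log2 fold change above 1, and of the 72 more abundant ones 1 did, Myc, which did not pass and is named, like Tnf, Psd, G6pdx and the markers, outside the naming rule and after its value was seen.

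Ligand transcripts ranged from absent to plentiful. Tnf, the ligand that names the tumour necrosis factor family, was at 0 in every pool but null 2 (5.12 normalized counts, 5 reads) and was not tested. Tnfsf13b, which encodes the B-cell factor BAFF, was the most abundant ligand per kilobase at 1951 ± 784 (SD, n = 3) and 2167 ± 303 (SD, n = 4) normalized counts. Il33, an alarmin, had 45.3, 32.3 and 46.9 in WT and 46.6, 55.3, 118 and 288 in null pools, and its top pools, null 3 and null 4, were also top for cumulus markers (fitted fold 2.33, limma adjusted p = 0.586). On the log2 scale the Il33 difference was 0.43 with the cumulus mean as covariate, 0.70 without null 4 and 0.30 without null 3 and null 4. The part of cumulus cells in the Il33 values was not tested. Il1a (26.3 ± 34.3 and 6.69 ± 10.6) and Cd40lg (53.1 ± 35.5 and 33.3 ± 32.6) were low and scattered in both groups.

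Receptor genes did not pass either. Il1r1, the signalling receptor of interleukin-1, was the most abundant receptor per kilobase, at 4069 ± 742 (SD, n = 3) normalized counts in WT and 4979 ± 993 (SD, n = 4) in null pools (limma estimate 0.28 on the log2 scale, standard error 0.159, adjusted p = 0.575). Tlr3, the endosomal receptor for double-stranded RNA, had the smallest p of all receptors. It stood at 1880, 2141 and 2051 in WT and at 1136, 858, 1935 and 1022 in null pools. 3 null pools lay well below every WT pool, while null 3 lay inside the WT range (limma estimate -0.78 on the log2 scale, standard error 0.226, adjusted p = 0.251, DESeq2 adjusted p = 0.114). Tlr3 overlaps an annotated antisense gene. Ltbr, the lymphotoxin beta receptor of the alternative pathway, was at 39.4 ± 41.1 and 94.6 ± 42.0 (limma estimate 1.66 on the log2 scale, standard error 0.784, adjusted p = 0.49). The Ltbr estimate was 2.48 without WT 1, 0.98 without WT 3 and 1.07 with the cumulus mean as covariate.

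Among adaptors and upstream kinases Birc3, which encodes the inhibitor of apoptosis and ubiquitin ligase cIAP2, stood out by level. It had 88598 ± 10294 (SD, n = 3) normalized counts in WT and 92854 ± 9536 (SD, n = 4) in null pools and reached percentile 99.2 per kilobase (limma estimate 0.07 on the log2 scale, standard error 0.0949, adjusted p = 0.850). Its neighbour and relative Birc2, cIAP1, was at 378, 386 and 445 in WT and 326, 580, 730 and 815 in null pools (limma estimate 0.53 on the log2 scale, standard error 0.309, adjusted p = 0.601). Its null pools stood in the order of their cumulus marker means. WT 1, the highest WT pool in these markers (8.82), had the lowest Birc2 value. The Birc2 estimate was 0.24 with the cumulus mean as covariate and 0.11 without null 3 and null 4. The part of cumulus cells in the Birc2 values was not tested. Malt1, the paracaspase of the CARD-BCL10 signalling complex, was at 192 ± 87.6 and 330 ± 83.0 (limma estimate 0.85 on the log2 scale, standard error 0.399, adjusted p = 0.489). Traf6, the ubiquitin ligase downstream of interleukin-1 and Toll-like receptors, was at 225 ± 97.2 and 339 ± 69.3 (limma estimate 0.65 on the log2 scale, standard error 0.361, adjusted p = 0.574).

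The ubiquitin genes held the pathway's smallest p. Btrc encodes beta-TrCP1, the substrate receptor that recognizes phosphorylated IkappaBalpha. It had 13492, 16589 and 14658 normalized counts in WT and 12660, 12180, 9742 and 10745 in null pools, with every null pool below every WT pool. The log2 fold change was -0.40 (SE 0.109), with an adjusted p of 0.219 in limma, 0.273 in edgeR and 0.0379 in DESeq2, and over all its alternative fits the adjusted p reached 0.706. Fbxw11, which encodes its close relative beta-TrCP2, went the other way. It stood at 3032, 3284 and 3082 in WT and at 3517, 3423, 4214 and 3381 in null pools, again without overlap, but did not pass (limma estimate 0.21 on the log2 scale, standard error 0.124, adjusted p = 0.606). Cul1, the scaffold of the SCF ligase that both receptors plug into, was the most abundant pathway gene per kilobase (percentile 99.6), at 146079 ± 28643 (SD, n = 3) and 140461 ± 22629 (SD, n = 4) normalized counts. Ube2n, the ubiquitin-conjugating enzyme Ubc13, was chosen after its values were seen because it is the third gene of this list with pools apart (4192 ± 79.1 in WT, 4731 ± 429 in null pools, limma adjusted p = 0.648). Tnip1, an A20-binding inhibitor, was at 2653 ± 291 and 2199 ± 374 (limma estimate -0.28 on the log2 scale, standard error 0.156, adjusted p = 0.574). Over the whole list 2 genes lay wholly higher and 1 wholly lower in null pools, of 20 tested, against 4.74% and 5.16% of all genes. Exons of Btrc and Cul1 overlap an annotated pseudogene on the opposite strand.

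Other inhibitors and cofactors did not part the genotypes. Akirin2, a nuclear cofactor of NF-kappaB, was the most abundant of them per kilobase (percentile 98.6), at 20442 ± 1082 (SD, n = 3) and 18552 ± 1379 (SD, n = 4) normalized counts (limma estimate -0.14 on the log2 scale, standard error 0.088, adjusted p = 0.623). Nfkbiz, which encodes the nuclear protein IkappaBzeta, was at 2698 ± 376 and 3193 ± 431 (limma estimate 0.24 on the log2 scale, standard error 0.146, adjusted p = 0.611). Nkiras2, a small GTPase-like protein that binds IkappaB, was low at 27.2 ± 23.4 and 57.0 ± 26.6.

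Textbook target genes of NF-kappaB spanned a continuous range of levels. Of 28 listed genes 25 were in the table and 20 were tested. The 5 that did not reach the mean of 10 normalized counts needed for testing were Il6, Cxcl2, Cxcl10, Icam1 and Sele. Other inflammatory targets were tested, and their means over all pools ran from 31.8 (Ccl2), 32.5 (Cxcl1) and 36.8 (Nos2) through 101 (Vcam1) to 2521 (Ptgs2). These inflammatory genes were named after their values were seen, and the part of cumulus cells in their levels was not tested. Csf1, which encodes the macrophage growth factor, was the most abundant target per kilobase. It was the only 1 of the 20 tested with pools apart, wholly higher in null pools, against 4.74% of all tested genes. It stood at 5935, 5760 and 5291 in WT and at 6781, 5975, 7709 and 6488 in null pools (limma estimate 0.25 on the log2 scale, standard error 0.111, adjusted p = 0.473). The lowest null pool, null 2, exceeded the highest WT pool, WT 1, by little. The survival gene Xiap was at 1832 ± 314 (SD, n = 3) and 2241 ± 424 (SD, n = 4), with null 3 highest (limma estimate 0.29 on the log2 scale, standard error 0.171, adjusted p = 0.606). The early response gene Ier3 was at 598, 243 and 417 in WT and 339, 628, 873 and 587 in null pools (limma estimate 0.55 on the log2 scale, standard error 0.351, adjusted p = 0.635). In this list 13 fold changes were positive and 7 negative, beside 7648 and 7423 among all tested genes.

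**Figure D4:**
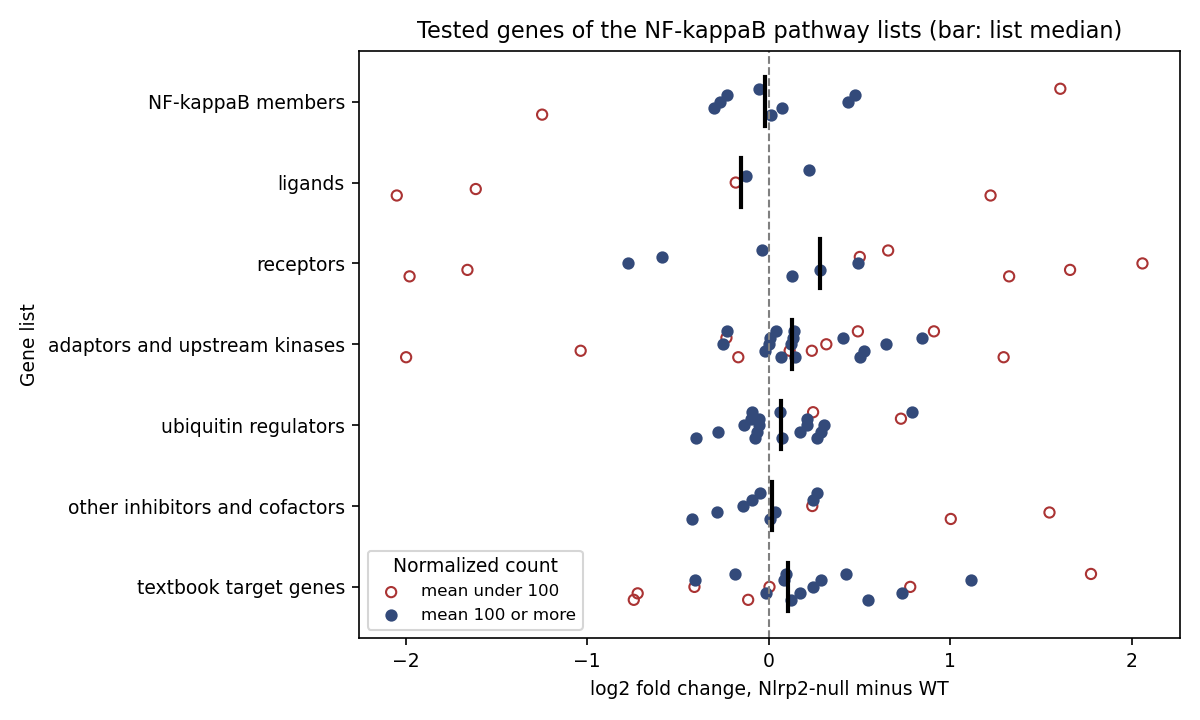
log2 fold change, Nlrp2-null minus WT, of each tested gene of the 10 members and the 6 pathway lists, with list medians as bars, open circles for a mean under 100 normalized counts and filled circles for more. Points beyond 1 in either direction are nearly all open circles (16, beside 1 filled), and list medians lie between -0.15 and 0.28.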

How the data were processed

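RNA was amplified from pools of ovulated oocytes and sequenced on an Illumina HiSeq 2500, per the labels' protocols. For each symbol and pool the authors deposited a signal, made by dividing counts by a size factor, per the file headers and names. Within a tolerance of 0.01, 100% of values were whole multiples of their pool's step, which gave back the read counts. Per the submitters' processing notes builds mm10 and GRCm38 and the programs STAR 2.5.0a, TopHat2 2.0.9, DESeq2 1.22.2, DESeq, HOMER, HTSeq and featureCounts 1.5.0-p1 were used. The program behind the table, its annotation and its strand setting were not given in the sources used here. A second deposited table, of assembled transcripts, was not used.

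The test was limma-trend (limma 3.58.1, R 4.3.3), null minus WT, on log2(normalized count + 1) over 15071 genes with a mean of at least 10. Fold changes are on that scale, where estimates for scarce genes can lie above or below those of the count models. Calls used a Benjamini-Hochberg adjusted p under 0.05 over all of them. edgeR 4.0.16 and DESeq2 1.42.0 on recovered reads were alternatives. DESeq2 left 2080 genes without an adjusted p. The limma, edgeR and DESeq2 fits were tested on simulated counts, and the other settings were not. These counts had an assumed spread that was not fitted to the pools, so they do not show how accurate the calls are here. Amplified reads are not independent molecules, so read intervals cover counting error only. No pair of pools of a group agreed within sampling noise (lowest chi-square over degrees of freedom 36.6). Each pool, made from several mice, counted as 1 replicate. Lengths, coordinates and overlaps came from GENCODE M21 (GRCm38).

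Members and lists were chosen with earlier results of these data known. Named genes were the members, Nlrp2, the 3 smallest p and the highest level per kilobase of each pathway list; other genes named are marked in the text as named after their values were seen.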

Additional observations from a re-analysis of the deposited data

Results flagged for a closer look

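In 3 of the 32 genes checked, 1 of the 4 null pools stood far from the other 3, with a gap to its neighbour that exceeded Dixon's 95% critical value for the share of the whole range. Chance marks about 1 in 20 such groups. Ikbkg had 255 normalized counts in null 1, against 84.4 to 111 in the other null pools, and G6pdx, whose exons overlap it, had 85989 in null 1. Fbxw11 had 4214 normalized counts in null 3, against 3381 to 3517 in the others. Il1a had 22.5 normalized counts in null 2, against 0 to 3.25 in the others.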

How the results depend on the processing

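No member of the 10 was called in any of the 21 alternative fits. Rel, Rela, Relb and Nfkb1 stayed negative and Nfkbia, Ikbkg and Tnfaip3 positive in each fit that tested them; Relb and Tnfaip3 dropped out under a minimum mean of 100. The difference of Nfkb2 turned to -0.041 with quantile normalization, -0.31 with the cumulus mean as covariate and -0.26 without null 3 and null 4, an alternative chosen after seeing the data. That of Chuk turned to -0.049 with equal medians and -0.014 with quantile normalization. That of Ikbkb turned to 0.038 with the cumulus mean, and that of Cul1 to 0.19 with that mean and 0.096 without null 3 and null 4. Leaving out 1 pool gave ranges of -0.31 to 0.32 for Nfkb2, -0.16 to 0.056 for Ikbkb, -0.089 to 0.17 for Chuk, -0.078 to 0.52 for Tnfsf13b, -0.020 to 0.15 for Birc3 and -0.22 to 0.059 for Cul1. The cause of these turns was not tested, and none of these differences was called in any fit. Among the other pathway genes DESeq2 called 1, Btrc, against 1.54% of all genes to which it gave an adjusted p. Over all genes, where 10 were called, the count was 6 with equal medians, 0 without a variance trend, 200 in DESeq2, 0 without null 3 and null 4, and between 2 (without null 3) and 16 (without null 1) with 1 pool left out; it was 4 without WT 2 or null 4 and 5 without WT 3. With the replicate number as a block, 1 gene was called, no member was, and the differences of Nfkb2, Chuk and Cul1 were -0.31, -0.014 and 0.057, a fit in which null 4 has no partner. The numbers gave no sign of pairing: deviations of same-numbered WT and null pools from their group means correlated at -0.16, 0.02 and -0.01. The median SE of a log2 fold change was 0.277, and the parts of pool differences and counting error in it were not separated. Values of Relb and Tnfaip3 rested on at most 112 reads a pool.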
